A study of Mus musculus with 4 samples.

Results

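The circadian clock genes of the mouse lens were measured here in lenses lacking S100A4 and in wild type (WT) lenses. The members were the 10 core clock genes *Clock*, *Arntl*, *Per1*, *Per2*, *Per3*, *Cry1*, *Cry2*, *Nr1d1*, *Nr1d2* and *Dbp*, taken by gene symbol. The rule did not use their values, but earlier results of these data were known when the members were chosen. All 10 had a row among the 14924 genes of the expression table and all 10 were tested. The question put to them was whether the pools of lenses differ in clock state, as pools taken at different times of day would. The *S100A4*-/- mice carry a null allele of *S100A4* in all cells, and both they and the WT mice were C57BL/6J and P30, with WT littermates as controls. The study used mice of both sexes kept on a cycle of light and dark. Stranded polyA RNA-seq was done on 2 *S100A4*-/- and 2 WT libraries, each made from 6 to 12 pooled lenses, so a value is an average over several animals. The time of day at which the lenses were taken is not given in the sources used here.

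The clock runs in most cells as a loop of transcription. The proteins CLOCK and ARNTL (also called BMAL1) pair and bind E-box sequences, and so switch on the *Per* and *Cry* genes, whose proteins return to the nucleus and block the pair. The same pair drives *Nr1d1* and *Nr1d2*, nuclear receptors that repress *Arntl*, and *Dbp*, which carries the rhythm to further genes through D-box sequences. In tissues with a running clock, *Arntl* RNA is therefore high when *Dbp* and *Nr1d1* RNA is low, and tissues taken at opposite times of day differ in opposite directions for these genes. Core clock genes are active in most tissues, those of the eye among them.

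Motifs of this loop near the gene start are shown for the members that hold them, since they are the letters that the loop's factors are known to bind. RefSeq promoter windows (build GRCm38.p6) were found for 9 of the 10 members, and the 250 bases before the gene start were searched on both strands. The E-box CACGTG was in 6.02% of all 32851 promoter windows, its variant CACGTT in 3.85%, the D-box (TTATGTAA or TTACGTAA) in 0.93%, and the ROR and NR1D element (TAGGTCA or TGGGTCA) in 5.38%. Capitals mark the matches, and each sequence runs 5′ to 3′ on the strand of the gene with 20 bases on either side, AACGTG being CACGTT read on the other strand.
*Cry1*, chr10:85185089-85185153, minus strand: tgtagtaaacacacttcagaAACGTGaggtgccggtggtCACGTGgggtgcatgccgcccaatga
*Cry2*, chr2:92434210-92434255, minus strand: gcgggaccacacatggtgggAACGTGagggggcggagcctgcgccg
*Per1*, chr11:69098763-69098808, plus strand: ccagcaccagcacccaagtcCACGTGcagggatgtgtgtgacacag
*Per3*, chr4:151044796-151044890, minus strand: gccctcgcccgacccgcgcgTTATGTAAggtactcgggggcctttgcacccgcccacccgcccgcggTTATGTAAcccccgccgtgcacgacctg
*Cry1*, which encodes a repressor of the CLOCK and ARNTL pair, had the variant 79 bases and the E-box 60 bases before its start. *Per1* had 2 RefSeq starts, with an E-box 166 bases before one and none of these letters before the other. *Cry2* had the variant 166 bases before its start. *Per3* had a pair of D-boxes, 205 and 158 bases before its start. *Nr1d1*, whose sequence is not shown, had the variant 28 bases before its RefSeq start. For this start, and for the *Per1* start without these letters, the bases checked after it were in no GENCODE transcript of the gene. The windows of *Arntl*, *Clock*, *Dbp* and *Nr1d2* held none of these letters. A match is a description of these letters and not a measured binding site.

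As a check of the labels, *S100a4* (ENSMUSG00000001020) had normalized values of 14.6 and 18.2 in *S100A4*-/- libraries 1 and 2, against 14420 and 14385 in WT libraries 1 and 2. A normalized value is the number of reads on a gene divided by 1 size factor for the library, and it is not divided by gene length. The libraries held 81602367 and 74108017 reads on genes in *S100A4*-/- and 70253985 and 68038158 in WT, and 1 read was worth 0.856, 1.01, 1.04 and 1.09 in that order. The lens label was met by the lens fiber markers, the 8 of which summed to 19563646 and 21318730 in *S100A4*-/- and 21461544 and 21678336 in WT, with the crystallin gene *Cryaa* the most abundant. None of these 8 genes reached an adjusted p of 0.05 or less in limma, which 6.96% of all tested genes did. Their median log2 difference (*S100A4*-/- minus WT) was -0.09, all 8 differences were below 0, and for 6 of the 8 both *S100A4*-/- libraries were below both WT libraries, as for 3426 of the 14780 tested genes. Of the 6 lens epithelium markers 1 rose, and their sums had a ratio of 0.99 (*S100A4*-/- over WT). *Xist*, which is made in females, and the Y-linked gene *Ddx3y* both had reads in all 4 libraries, so every pool held both sexes. Of the 5 genes listed for the sex of the mice, 2 rose, *Ddx3y* by 0.43 and *Eif2s3y* by 0.88 on the log2 scale, and whether the mix of sexes has a part in the clock values was not tested. *Xist*, *Ddx3y* and *Eif2s3y* were chosen after their values were seen.

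All 10 clock genes were detected in all 4 lens libraries. The lowest number of reads on any member was 268, for *Arntl* in WT library 1, where counting alone gives an error of 6.1%. Compared per kilobase of exon, *Dbp* had the highest level of the members, with a mean of 457.2 over the 4 libraries and a range of 424.6 to 475.8. *Cry2* followed at 374.4, *Nr1d1* at 313.4 and *Clock* at 218.1, and the ranges of these 4 genes over the libraries did not overlap. *Cry1* at 153.6 and *Nr1d2* at 142.4 came next and overlapped in their ranges, as did *Per2* at 108.9 and *Per1* at 96.7. *Per3* at 77.2 and *Arntl* at 41.7 were lowest, and *Dbp* stood 11.0 times above *Arntl*. Exon lengths came from GENCODE M21 and are not those of the authors' annotation, so the order is approximate for neighbours.

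No clock gene was called in *S100A4*-/- lenses by the study's criteria. These criteria were a change of 2-fold or more and an adjusted p not above 0.05, here from limma with Benjamini-Hochberg adjustment across the 14780 genes tested. They were met by 0 of the 10 members and by 3.72% of all genes tested. Without the fold criterion the count was also 0 of 10, against 6.96% of all genes. At these shares few or no calls would be counted among 10 genes, so the 0 is no result about the members as a list. At an unadjusted p under 0.05 there were 2 members, *Arntl* and *Nr1d2*, against 17.7% of all genes. At an adjusted p not above 0.05 without the fold criterion, DESeq2 called 0 of the 10 members and 661 of the 14780 genes. At the same cut edgeR called 1 member, *Nr1d2*, and 1040 of the 14780 genes. The median log2 difference (*S100A4*-/- minus WT) of the members was 0.039, beside -0.005 for all tested genes, and their median absolute difference was 0.082 beside 0.12. In the 7384 genes whose mean value was no lower than that of *Arntl*, the lowest member, the median absolute difference was 0.072. The 95% intervals of all 10 members lay inside a 2-fold change in either direction. With 1 library left out, the sign of the difference turned, or the difference reached 0, for *Clock*, *Per2*, *Cry1*, *Cry2*, *Nr1d1* and *Dbp*, and it stayed above 0 for the other 4. Log2 differences are on the scale of log2(value + 1).

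**Figure D1:**
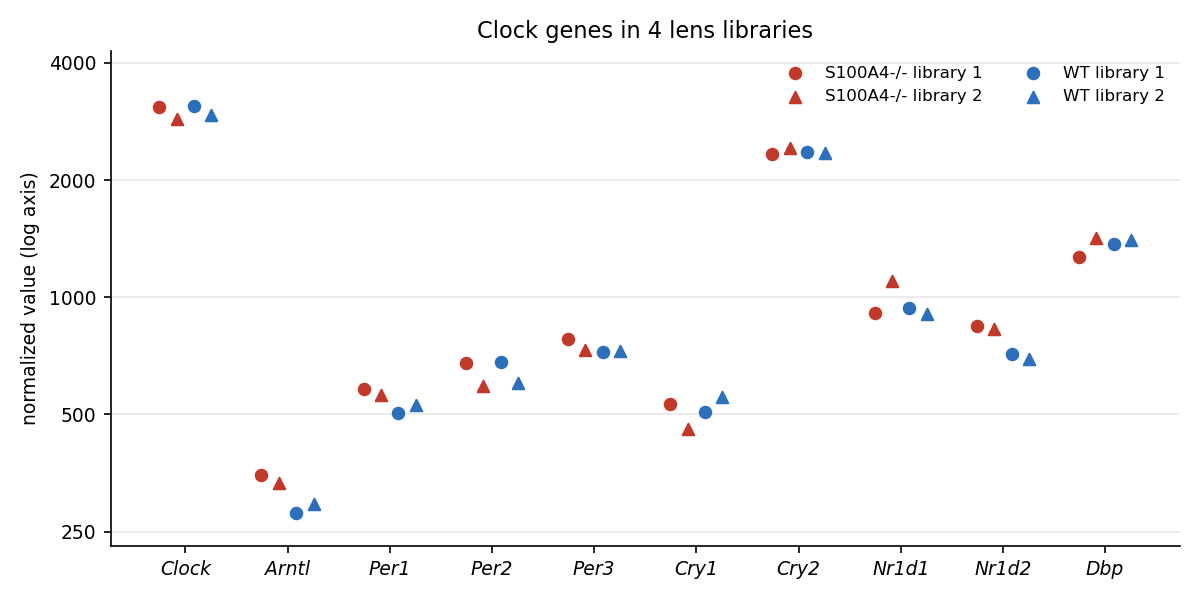
Normalized values (reads over the library's size factor, log axis) of the 10 clock genes, with each library as a point: *S100A4*-/- in red and WT in blue, library 1 as circles and library 2 as triangles. The red and blue points lie apart for *Arntl*, *Per1*, *Per3* and *Nr1d2* and are mixed for the other 6 genes.

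The activators form the positive arm of the loop. *Clock* (ENSMUSG00000029238, chr5:76209868-76304792 on GRCm38) had values of 3079.5 and 2864.1 in *S100A4*-/- and 3098.0 and 2934.3 in WT. The groups overlapped, and the log2 difference was -0.02 (SE 0.06, adjusted p = 0.895, limma). *Arntl* (ENSMUSG00000055116, chr7:113207465-113314126), its rhythmic partner, had 349.4 and 332.4 in *S100A4*-/- against 279.8 and 294.5 in WT. Both *S100A4*-/- libraries were above both WT libraries, by 0.25 on the log2 scale (SE 0.12, 95% interval 0.01 to 0.48), or 1.19-fold, with an adjusted p of 0.257 in limma. The difference thus did not pass the test, although it was larger than the gap between replicates, 0.07 in size in either group.

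The *Per* genes encode repressors that act together with the CRY proteins. *Per1* (ENSMUSG00000020893, chr11:69095217-69109960) had 581.5 and 562.5 in *S100A4*-/- against 505.4 and 528.8 in WT. Its groups did not overlap, with a log2 difference of 0.15 (SE 0.09, adjusted p = 0.443, limma). *Per2* (ENSMUSG00000055866, chr1:91415982-91459324) had 677.4 and 589.9 in *S100A4*-/- against 681.8 and 602.2 in WT. Library 1 was the higher of its pair in both genotypes, by 0.20 and 0.18, while the genotypes differed by -0.02 (SE 0.09, adjusted p = 0.946, limma). *Per3* (ENSMUSG00000028957, chr4:151003652-151044665), whose promoter held the D-boxes, had 782.7 and 733.8 against 722.6 and 729.2. The WT libraries were nearly level and just below both *S100A4*-/- libraries, with a log2 difference of 0.06 (SE 0.08, adjusted p = 0.768, limma).

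The cryptochromes are the main repressors of the CLOCK and ARNTL pair. *Cry1* (ENSMUSG00000020038, chr10:85131700-85185064) had 530.9 and 459.1 in *S100A4*-/- and 506.4 and 555.1 in WT, the groups overlapping. Its log2 difference of -0.10 (SE 0.10, adjusted p = 0.655, limma) was smaller in size than the replicate differences of 0.21 and -0.13. *Cry2* (ENSMUSG00000068742, chr2:92403646-92434043) was the steadiest member, with 2334.4 and 2423.3 against 2357.7 and 2348.6. Its highest library was 1.04 times its lowest, and its log2 difference was 0.02 (SE 0.06, adjusted p = 0.931, limma).

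The nuclear receptors and *Dbp* are the direct outputs of the pair. *Nr1d1* (ENSMUSG00000020889, chr11:98767932-98775333), the repressor of *Arntl*, had 912.0 and 1100.7 in *S100A4*-/- and 937.6 and 906.6 in WT. The second *S100A4*-/- library stood above the others and the first lay between the WT libraries, so the replicate difference of -0.27 exceeded the log2 difference between groups, 0.12 (SE 0.08, adjusted p = 0.478, limma). *Nr1d2* (ENSMUSG00000021775, chr14:18204054-18239127), a receptor of the same kind, had 842.7 and 829.0 in *S100A4*-/- against 716.3 and 693.1 in WT. Both *S100A4*-/- libraries were above both WT libraries and replicates differed by only 0.02 and 0.05. The log2 difference was 0.25 (SE 0.08, 95% interval 0.08 to 0.41), or 1.19-fold, with an adjusted p of 0.0594 in limma, 0.048 in edgeR's quasi-likelihood test and 0.289 in DESeq2, so the call differed between these tools, and it also changed with the design of the limma fit. *Dbp* (ENSMUSG00000059824, chr7:45705088-45710203), the member of highest level per kilobase, had 1270.8 and 1424.0 in *S100A4*-/- and 1373.1 and 1405.9 in WT. The groups overlapped, with a log2 difference of -0.05 (SE 0.07, adjusted p = 0.80, limma).

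**Figure D2:**
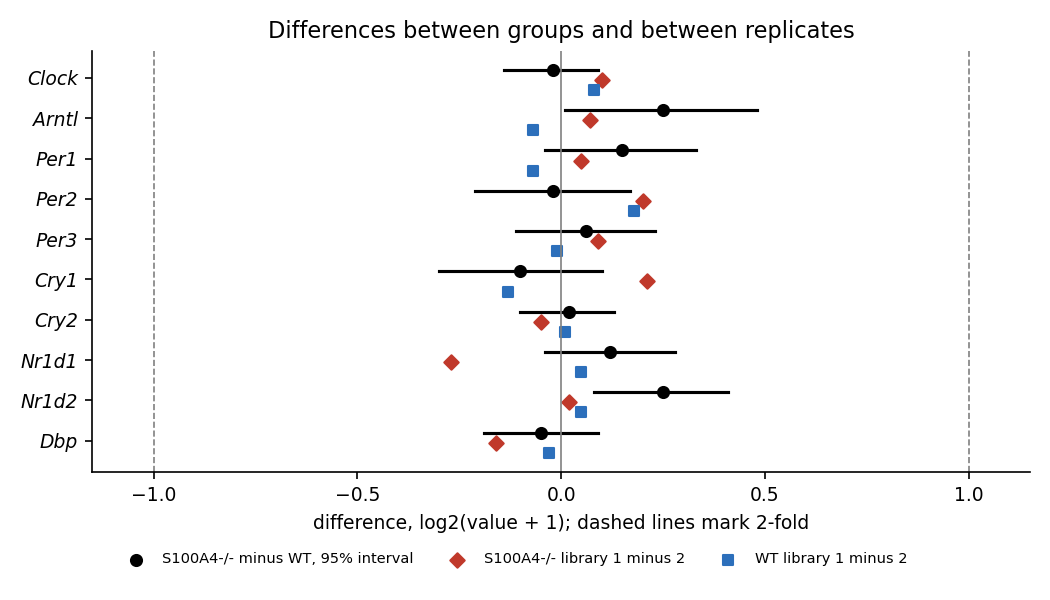
Log2 differences of the 10 clock genes on the log2(value + 1) scale: *S100A4*-/- minus WT with its 95% interval (black), library 1 minus library 2 within *S100A4*-/- (red) and within WT (blue). All intervals lie between the dashed lines at a 2-fold change, and the widest replicate difference is -0.27, for *Nr1d1*.

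Separation of the genotypes was about as frequent among the members as among all genes tested. In 4 of 10 members both *S100A4*-/- libraries were above both WT libraries, in 0 they were both below, and in 6 the groups overlapped. Among all tested genes, 46.9% separated in one direction or the other and 23.7% had both *S100A4*-/- libraries higher. With 2 libraries a group, an exact permutation test of a single gene cannot give a two-sided p under 0.333. Within groups, the median absolute replicate difference of the members was 0.099 in *S100A4*-/- and 0.057 in WT, beside 0.074 and 0.066 in the 7384 genes no lower than *Arntl*. Under scaling to equal totals, which moves all genes of a library by the same factor, the *S100A4*-/- value of the members was 0.17. The value for other genes was not computed at that scaling, so 0.17 is not to be set beside 0.074. The highest library of a member stood 1.04 to 1.25 times above its lowest.

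The balance between the arms of the loop was taken as 1 value for each of the 4 libraries. The mean log2 value of the 6 genes *Per1*, *Per2*, *Per3*, *Nr1d1*, *Nr1d2* and *Dbp*, less that of *Clock* and *Arntl*, was -0.34 and -0.24 in *S100A4*-/- and -0.25 and -0.28 in WT. The WT libraries lay between the *S100A4*-/- libraries, and the 4 values spanned 0.10. *Arntl* in one arm and *Per1* and *Nr1d2* in the other were higher in both *S100A4*-/- libraries, and such differences offset each other in this value. Single pairs of genes varied more. *Dbp* less *Arntl* was 1.86 and 2.10 in *S100A4*-/- against 2.29 and 2.25 in WT. *Per2* less *Arntl* was 0.95 and 0.83 against 1.28 and 1.03, and *Nr1d1* less *Arntl* was 1.38 and 1.72 against 1.74 and 1.62. For *Dbp* and *Per2* both *S100A4*-/- libraries were below both WT libraries, and for *Nr1d1* the groups overlapped. *Arntl* enters all of these pairs, so they are not separate observations. In both pairs computed without *Arntl* the groups overlapped. *Dbp* less *Cry1* was 1.26 and 1.63 against 1.44 and 1.34, and *Per1* less *Per2* was -0.22 and -0.07 against -0.43 and -0.19. Whether the pools were collected at different times cannot be read from these values, since no library of known time was analysed here.

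The other genes of the clock pathway were listed by role, and 54 genes beside the members were tested. Of these, 2 rose, 0 fell and 52 did not pass the test (adjusted p of at most 0.05, limma), where 6.96% of all tested genes passed it. At that share few or no calls would be counted in the short lists by role, so a count of 0 there is no result about a list. Their median log2 difference was 0.023. The genes that rose were *Rorb* and *Sgk1*.

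*Rorb* (ENSMUSG00000036192, chr19:18930605-19111196), a receptor that activates *Arntl* through the element that NR1D proteins also bind and that is also made in retinal neurons, had values of 119.0 and 91.2 in *S100A4*-/- against 33.4 and 26.3 in WT. These rest on 139 and 90 reads against 32 and 24, few beside the core genes. It was higher by 1.78 on the log2 scale (SE 0.27, adjusted p = 9.26e-06, limma), and the adjusted p was 0.0811 without limma's variance trend. Its relative *Rora* did not pass the test, with 1651.1 and 1375.3 against 1442.0 and 1271.2, overlapping groups and a log2 difference of 0.15 (adjusted p = 0.281, limma).

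*Sgk1* (ENSMUSG00000019970, chr10:21882184-21999903), a kinase induced by glucocorticoid hormone, had values of 913.7 and 818.9 in *S100A4*-/- against 303.8 and 295.6 in WT. It was 2.88-fold higher, by 1.53 on the log2 scale (SE 0.10, adjusted p = 2.54e-15, limma). Among the other rhythmic targets, *Fkbp5* and *Tsc22d3* did not pass the test. Whether the hormone has a part in any of these values was not tested. *Fkbp5*, a chaperone partner of the hormone's receptor, had a log2 difference of 0.07 (adjusted p = 0.751, limma), and *Tsc22d3*, chosen after its values were seen, had 492.4 and 445.9 against 418.7 and 398.5, a difference of 0.20 (adjusted p = 0.315, limma). The remaining rhythmic targets of high level were *Mknk2*, a kinase of translation control, at 0.01, *Por*, the electron donor of cytochrome P450 enzymes, at 0.16, and *Nampt*, which makes NAD, at 0.03. Of the 14 targets tested, *Per1* among them, 13 did not pass. The median log2 difference of the 14 was 0.143, both *S100A4*-/- libraries were above both WT libraries for 8, and for 0 they were both below, where 23.7% of all tested genes had both *S100A4*-/- libraries higher. *Cdkn1a*, an inhibitor of the cell cycle chosen after its values were seen, had 54.8 and 57.8 against 23.0 and 37.2, a difference of 0.92 (adjusted p = 0.0861, limma).

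Many markers of retina and pigment cells were also higher in *S100A4*-/- libraries. The paper reports *Rorb* and rod genes as raised in the *S100A4*-/- lens. It also shows higher levels of several photoreceptor proteins there by immunoblot and immunofluorescence. Of 29 retinal marker genes, 26 rose and 0 fell (adjusted p of at most 0.05, limma), where 6.96% of all tested genes passed that test. The 10 rod markers all rose and summed to 8543 and 8211.3 in *S100A4*-/- against 2010 and 2111 in WT, a ratio of 4.07, and none was at 0 in any library. Their most abundant gene, *Gnat1*, a rod transducin, had 3338.9 and 3327.3 against 736.1 and 781.8. The 5 cone markers, led by *Opn1sw*, all rose, with a ratio of summed values of 2.97. Of the 9 markers of bipolar, amacrine and ganglion cells, led by *Trpm1*, 8 rose, with a ratio of 2.17, and 1 of the 9 was at 0 in a library. Of the 5 Muller glia markers, 3 rose and the median log2 difference was 1.404. The ratio of their sums was 1.07, which follows *Dkk3*, the most abundant, at 1.02-fold. The 5 pigment cell markers, led by *Dct*, all rose, with a ratio of 5.54, and 2 of 3 ciliary body and iris markers rose. Calls were made for 1 of 5 blood markers, 1 of 4 endothelial markers and 1 of 2 macrophage markers, all upwards. In lists this short, 1 call is no result about the list. Among the endothelial markers both *S100A4*-/- libraries were above both WT libraries for 1 gene and below both for 1. The marker genes named here were picked once their values had been seen. The summed clock members were 11361 and 11319 in *S100A4*-/- against 11179 and 10998 in WT, a ratio of 1.02. In these bulk libraries, more or fewer cells of a type cannot be told apart from more or less RNA per cell. The part of these tissues in the values of *Rorb*, *Sgk1* and the clock members was not tested. Mitochondrial RNA also rose (3 of 3 genes, ratio of summed values 1.26).

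**Figure D3:**
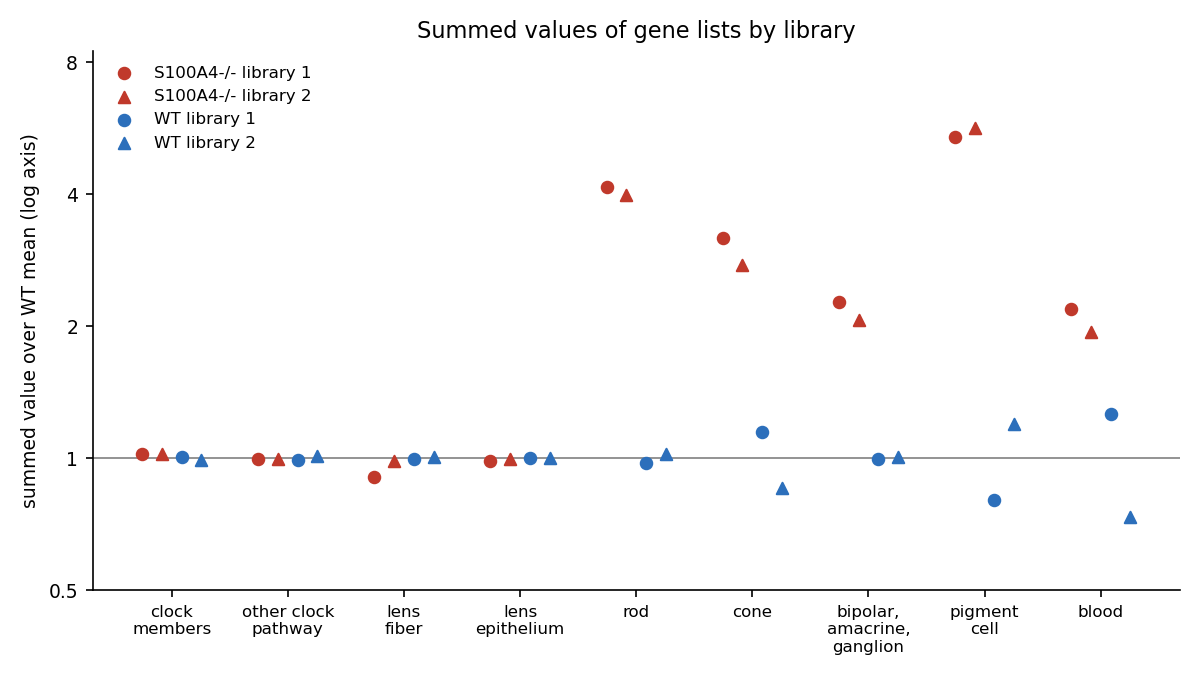
Summed normalized values of gene lists in each library, divided by the mean of the WT libraries (log axis), with *S100A4*-/- in red, WT in blue, library 1 as circles and library 2 as triangles. The clock members lie near 1 with a ratio of 1.02, while the rod list stands at a ratio of 4.07 and the pigment cell list at 5.54.

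The output factors, which pass the rhythm on, showed 0 of 6 calls with *Dbp* counted among them. *Tef* and *Hlf*, relatives of *Dbp* that bind the same D-box, had log2 differences of -0.03 (adjusted p = 0.83, limma) and 0.07 (adjusted p = 0.578, limma). *Tef* had 4620.9 and 4575.9 in *S100A4*-/- and 4764.5 and 4620.5 in WT. *Bhlhe41* and *Bhlhe40*, repressors that compete for the E-box, differed by -0.02 and -0.05. Of the 6 factors, *Hlf* alone had both *S100A4*-/- libraries above both WT libraries (2141.7 and 2118.2 against 2070.6 and 1979.6), and the other 5 overlapped.

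The regulators of clock proteins had no call. Of 11 kinases, ubiquitin ligases and ubiquitin proteases, 0 passed the test. *Csnk1d* and *Csnk1e*, the casein kinases that mark PER proteins for turnover, had log2 differences of 0.07 (adjusted p = 0.584, limma) and 0.01 (adjusted p = 0.942, limma). *Fbxw11*, a ubiquitin ligase part for PER proteins, differed by -0.01, and *Usp9x*, a ubiquitin protease, by -0.06. Of 13 cofactors 0 passed, and *Ddb1*, *Ncor1*, *Timeless* and *Cul4a*, those of highest value, had differences between -0.08 and 0.04. The groups did not overlap for 3 regulators that were higher and 1 that was lower, and for 2 cofactors that were higher and 4 that were lower, near the 46.9% of all tested genes that separated. *Arntl2*, the relative of *Arntl*, had 94.2 and 79.1 against 94.0 and 105.1, with overlapping groups, and the repressor *Ciart* had 52.2 and 48.6 against 39.7 and 62.4, also overlapping.

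Genes whose rhythm follows body temperature and feeding gave no call (0 of 7) in the main limma fit. *Cirbp*, a cold-induced RNA-binding protein, had 967.7 and 939.5 in *S100A4*-/- against 1003.4 and 1061.0 in WT, a log2 difference of -0.11 (adjusted p = 0.459, limma). *Rbm3*, the other cold-induced gene of the list, named after its values were seen, lay in the opposite direction, with 187.5 and 193.6 against 141.0 and 132.5 and a difference of 0.48 (adjusted p = 0.0659, limma). With the replicate number as a block in the limma fit, *Rbm3* was called, as were 1330 of the 14780 genes tested. The chaperone genes *Dnajb1*, *Hsp90aa1* and *Hsph1* had differences of -0.04, -0.10 and 0.12, none past the test. *Hspa1a*, a heat shock gene chosen after its values were seen, had 27.4 and 36.5 against 14.6 and 16.4, a difference of 0.98 (adjusted p = 0.199, limma).

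**Figure D4:**
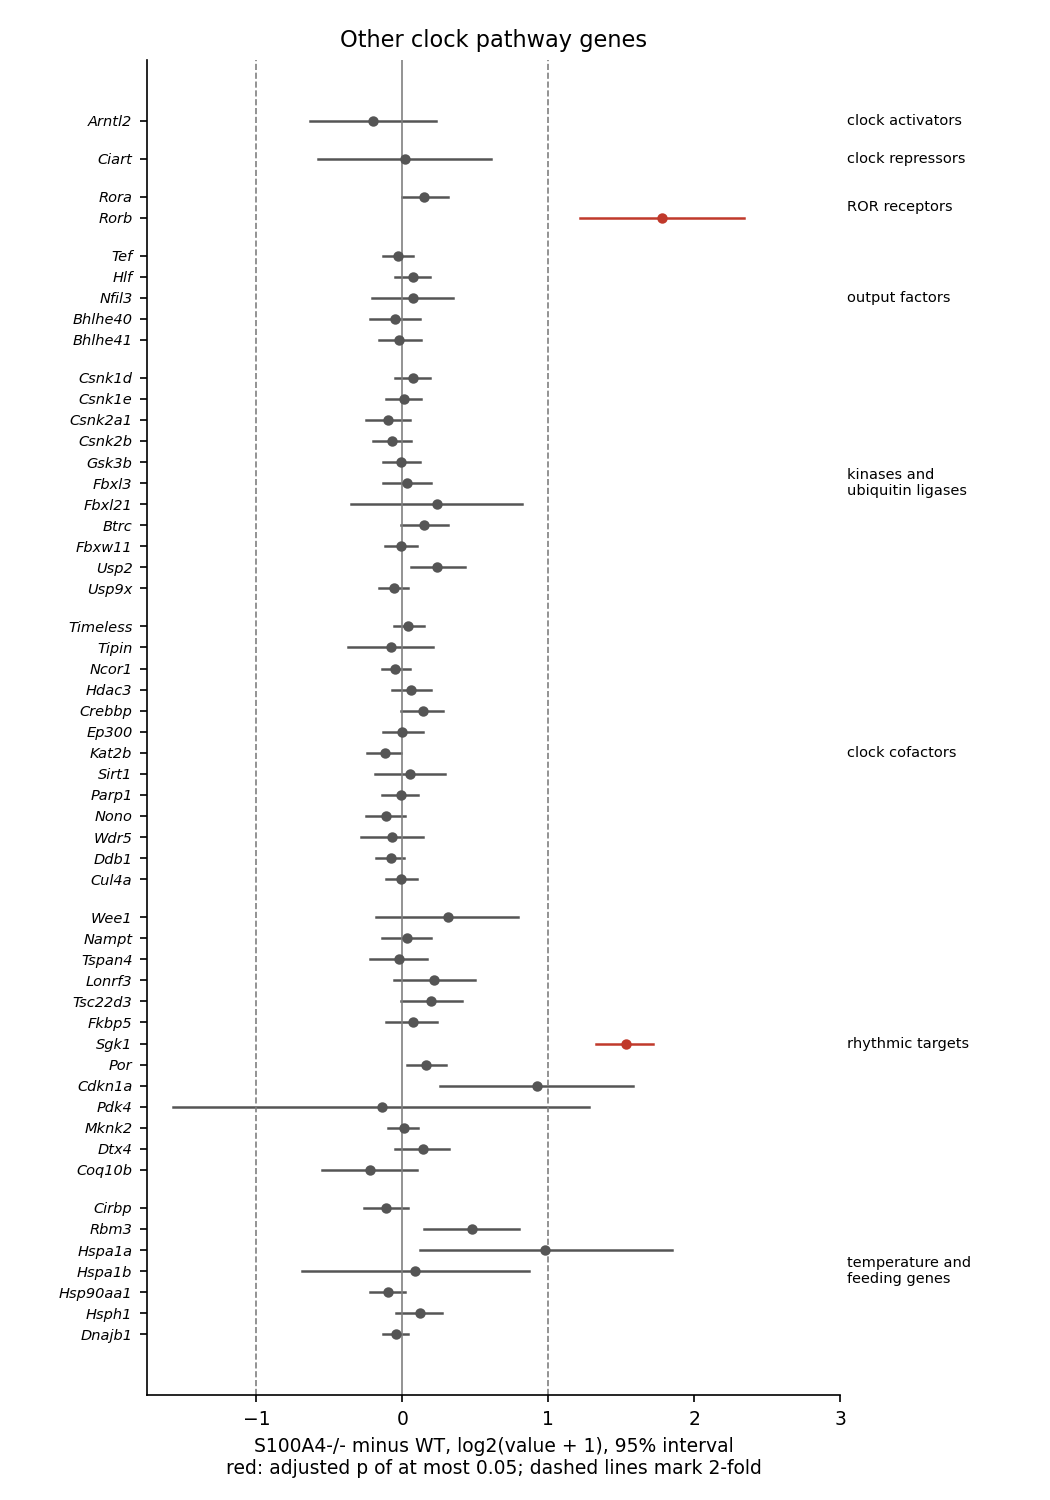
Log2 differences, *S100A4*-/- minus WT on the log2(value + 1) scale with 95% intervals, of the tested clock pathway genes other than the 10 members, grouped by role, with 1 of the 54 not shown. *Rorb* and *Sgk1* (red) have an adjusted p of at most 0.05, and the genes in grey do not.

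Neighbouring genes limit a few of these values. Whether the authors' counting used the strand of the reads is not given in the sources used here, and exons of *Dbp* overlap those of *Sphk2* on the other strand over 539 bases, or 18.0% of its exon length. *Sphk2* had 817.0 and 837.1 in *S100A4*-/- against 837.4 and 826.6 in WT. *Nr1d1* overlaps *Thra* over 8.5% and *Cry2* overlaps a neighbour over 4.7%. *Thra* had 3285.0 and 3230.0 against 3268.2 and 3162.1, so neither named neighbour stood apart between genotypes. *Sphk2* and *Thra* were chosen after their values were seen.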

How the data were processed

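Lens RNA was sequenced in 2 *S100A4*-/- and 2 WT libraries, each a separate pool, and groups came from the labels. According to the study's methods and the processing notes, the authors used Trim Galore for trimming, STAR for alignment to GRCm38 (mm10), and HTSeq to count single-locus reads. They kept genes with 10 reads or more in any library and scaled counts with DESeq2. Tool versions and the strand setting are not given in the sources used here. These scaled counts are the signal values that the authors deposited, with no division by gene length. Columns without a sample numbered 0.

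Every value was a whole multiple of the value of 1 read (100.0% within 0.001 reads), so counts were recovered for the count tests. Differences were tested with limma on log2(value + 1), with a variance trend, in the 14780 genes reaching a value of 10 in a library. This left out 144 genes, and no clock gene. A count of 0 allows up to 3 reads, and such limits cover counting error only. Replicate libraries differed by more than sampling noise (mean chi-square per gene 35.2 in *S100A4*-/- and 15.5 in WT, medians 2.02 and 1.1). Gene positions and exon lengths came from GENCODE M21, and promoters from RefSeq. The pathway text names all members, list genes with an adjusted p not above 0.05 and up to 4 others of highest mean per list, and other genes are said to be chosen after their values were seen. Of the pathway genes, 1 is counted but not reported here by name. The members and lists were chosen with earlier results of these data known. The alternatives were other pseudocounts, filters and scalings, no variance trend, a replicate block, edgeR, DESeq2 and leaving out each library. The limma, edgeR and DESeq2 tests were first tested on simulated data. Tables and plots were made in Python 3.11.15 (pandas 2.3.3, numpy 2.4.6 and matplotlib 3.10.9), and the fits in R 4.3.3 with DESeq2 1.42.0, edgeR 4.0.16 and limma 3.58.1.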

Additional observations from a re-analysis of the deposited data

How the results depend on the processing

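The count of clock genes past the threshold was 0 under all 15 alternatives, and the largest absolute log2 difference of any member was 0.28. Of 150 fits of a member under an alternative, 137 kept the direction and the side of the threshold, 11 reversed the sign and 2 brought *Nr1d2* past an adjusted p of 0.05. The limma fit with the replicate number as a block gave *Nr1d2* a difference of 0.25 with an adjusted p of 0.0272, making 1 member called. In that fit 1330 of the 14780 genes had an adjusted p not above 0.05, against 1028 in the main fit. Replicate numbers do not mark shared animals, and deviations of same-numbered libraries correlated at 0.012 across 14780 genes. edgeR also called 1 member, *Nr1d2*, at 0.25 (adjusted p = 0.048), and 1040 of the 14780 genes at that cut.

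Scaling to equal totals turned *Clock* to 0.01 and *Per2* to 0.01, and quantile normalization put *Clock* at 0.00. Leaving out each library in turn gave -0.07 to 0.03 for *Clock*, -0.12 to 0.08 for *Per2*, 0.02 to 0.11 for *Per3* and -0.21 to 0.00 for *Cry1*. The ranges were -0.01 to 0.04 for *Cry2*, -0.02 to 0.26 for *Nr1d1*, 0.22 to 0.27 for *Nr1d2* and -0.13 to 0.04 for *Dbp*. The reversals came without *S100A4*-/- library 2 (*Clock*, *Per2*, *Cry1*, *Cry2* and *Nr1d1*), without WT library 1 (*Clock* and *Per2*) and without *S100A4*-/- library 1 (*Dbp*). The lone library of a group was then assumed to vary like the other group. Scaling to equal totals also moved the median absolute replicate difference of the members in *S100A4*-/- from 0.10 to 0.17. *Arntl*, *Per1*, *Per3* and *Nr1d2* stayed above 0 under all 15 alternatives.

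Of the clock pathway list, 1 gene was called without the variance trend (*Sgk1*; *Rorb* had 1.78 with an adjusted p of 0.0811) and 2 to 3 with a library left out, *Cdkn1a* being added without WT library 2. The replicate block called 3, adding *Rbm3*. The 550 genes past the threshold became 287 with a mean value of at least 50, 181 without the variance trend and 281 to 543 with a library left out, 281 without *S100A4*-/- library 1 and 313 without library 2. The 1028 genes at an adjusted p not above 0.05 became 187 without the trend, 661 in DESeq2 and 491 to 890 with a library left out. The cause of these changes was not tested. Each group had 2 libraries, and *Arntl*, with a counting error of 6.1% in its lowest library, was the least precisely counted member.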
